A study of Mus musculus with 3 samples.

Results

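The hippocampal subfield neuron markers are 32 genes that mark the principal neurons of the dentate gyrus (12 genes), CA1 (8), CA3 (8) and CA2 (4). They were chosen by name: a probe belonged to the set if its gene name in the scanner files was one of the 32. They were read by 46 of the 39429 probes on the array, and 29 of the 32 genes, of 17964 genes measured in all, had a probe well above background. RNA came from the whole hippocampus of male mice killed at postnatal day 120. The mothers were 15 to 18 months old (advanced maternal age, AMA) or 3 months old (young maternal age, YMA, the control), and the fathers of both groups were virgin males of 3 months. The strain is not given in the sources used here, and no drug or engineered allele is named for either group. There were 3 pools per group, each mixed from the RNA of 3 animals. On each of 3 two-colour arrays 1 AMA pool, labelled with Cy3, was set against 1 YMA pool, labelled with Cy5. The dyes were never swapped, so a ratio holds any dye difference together with the difference between the groups.

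Granule cells of the dentate gyrus receive the input from the entorhinal cortex and send mossy fibres to the pyramidal cells of CA3. CA3 cells project to CA1, the main output of the circuit, and the small CA2 field lies between them. Each field keeps its own set of transcription factors, receptors and adhesion molecules in the adult, which makes such genes useful as labels of the fields in RNA of the whole structure. Granule cells are also made in the adult, so the dentate gyrus holds young as well as mature neurons.

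Of the 29 measured genes, all were well above background in both dyes on all 3 arrays, and each of the 4 fields kept at least 4 markers. The other 3 genes gave no level: Tdo2, a tryptophan-degrading enzyme of the dentate list, was well above background in 0 older-mother pools and 2 young-mother pools, Iyd, an iodotyrosine deiodinase of the CA3 list, in 0 pools of either group, and Cdh24, a CA3-list cadherin, in 1 pool of each. Several genes were read by more than 1 probe. The probes of 3 genes carry the results below on a called gene and on probes that differ, and their sequences show that these are separate stretches. The first 30 of the 60 bases are given 5′ to 3′ as the array files list them, with no base marked. No pair of probes of a member gene shared a run of over 10 bases. Coordinates are on mouse build mm9, which the file headers name. No mm9 annotation was used here, so exon, intron or UTR is not stated.
Dock10 probe 1, chr1:80498033-80498092, minus strand: gaagtagtattgatcaagccacgctaaaca
Dock10 probe 2, chr1:80564572-80564631, minus strand: cgatggtggcaaaccgcttttcaaagtgtc
Ndst4 probe 1, chr3:125427787-125427846, plus strand: ctgtgaataaattcctatcgatgttttctg
Ndst4 probe 2, chr3:125425045-125425104, plus strand: tcagctactagaaggaggaaaaaccaaatg
Cpne4 probe 1, chr9:104935202-104935261, plus strand: caccgtgaactacacttttacagaattctg
Cpne4 probe 2, chr9:104936317-104936376, plus strand: tcatgccaaatagcaacatggctgtccaac
Cpne4 probe 3, chr9:104895484-104895543, plus strand: gtacaaagccaagaagaaaaattacaagaa

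The comparison asks which of these markers differ with the age of the mother in the hippocampus of adult male offspring. At the brightest probe of each gene, 1 of 29 markers passed the test: Dock10, a dentate marker, was 1.33-fold higher in the older-mother pools. No CA1, CA3 or CA2 marker passed it. The test was limma on the older-over-young log2 ratio, two-sided, with p adjusted by Benjamini-Hochberg over all 27630 measured probes and a threshold of 0.05. Over all 17964 genes it called 7.34% higher and 12.2% lower, 19.5% in either direction, so 1 call among 29 is a smaller share than in the background. At an unadjusted p under 0.05 there were 11 of the 29 markers, against 7091 of all 17964 genes. The pool signals of the groups did not overlap for 12 of the 29 markers, where 42.7% of all genes had no overlap. The median log2 ratio of the 29 markers was -0.02, beside -0.03 for all genes. Of the markers 13 had a mean above 0 and 16 below, beside 42.8% of all genes above 0. With RNA of the whole hippocampus, fewer cells of a type and less RNA per cell cannot be told apart.

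**Figure D1:**
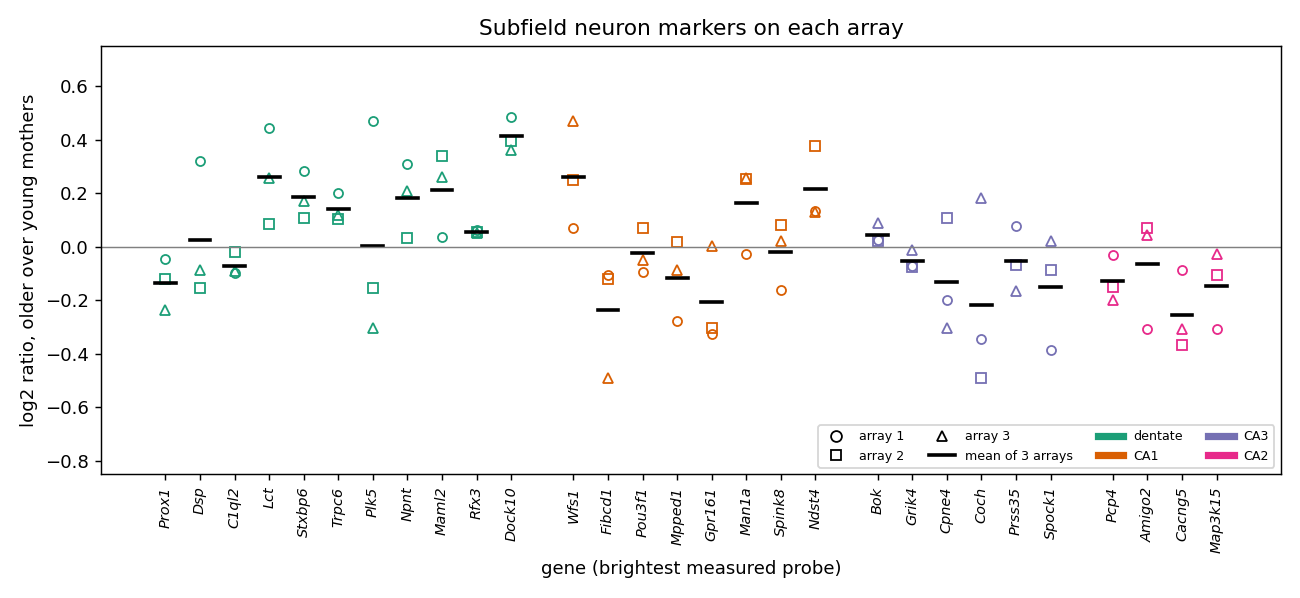
Each open symbol is the older-over-young log2 ratio on 1 array (circle array 1, square array 2, triangle array 3) for the brightest probe of each of 29 genes, and the black bar is the mean of the 3 arrays. Dock10, the only gene past the adjusted threshold, has its 3 symbols between 0.36 and 0.48; dentate genes lie mostly above 0 and CA2 genes below it, on the loess scale used here.

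On the loess scale used here, differences between the groups were small at the brightest probes. For 27 of the 29 genes the 95% confidence interval of the log2 ratio lay within 0.5 either way, which is 1.41-fold; the other 2 were Dock10, with an interval of 0.29 to 0.53, and Coch, with one of -0.55 to 0.11. Other signals and probes gave other sizes. With Agilent's processed signals the log2 ratios of Npnt, Gpr161 and Cacng5 were 0.45, -0.44 and -0.46, while that of Man1a was 0.02. The interval of a second Cpne4 probe reached 0.63. The SD over the 3 arrays at the brightest probes ran between 0.0068 for Rfx3 and 0.41 for Plk5. P-values rest on the spread between these pools, which limma moderates with that of other probes. Rfx3, with the smallest SD, thus had a limma adjusted p of 0.375. Each pool averages 3 animals, and whether pools share litters is not stated.

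Among the dentate markers, Dock10 encodes a guanine nucleotide exchange factor. At its brightest probe the older-mother pools gave normalized log2 intensities of 11.21, 11.24 and 11.29 on arrays 1, 2 and 3, and the young-mother pools 10.72, 10.84 and 10.93. Every older-mother pool was above every young-mother pool. The log2 ratios were 0.48, 0.40 and 0.36, with a mean of 0.41 ± 0.06 (SD, n = 3) and a limma adjusted p of 0.0152; with median centring of arrays instead of loess the ratio was -0.18, which is 0.22 above the median of all genes on that scale (-0.40). The call was lost without array 3, where the ratio was 0.44 with a limma adjusted p of 0.0515 and 0.145% of all genes were called.

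Another Dock10 probe, starting 66539 bases away, was also higher, but passed the threshold in only 5 of 11 other settings. It read 9.52, 9.40 and 9.51 in the older-mother pools and 9.18, 9.25 and 9.31 in the young-mother pools (normalized log2 intensity), again with no overlap. Its log2 ratio was 0.23 ± 0.10 (SD, n = 3), a 1.17-fold difference, with a limma adjusted p of 0.0427; the ratio was -0.24 under median centring, 0.17 above all genes there, and the adjusted p was 0.102 without array 3. The remaining Dock10 probe, 2130 bases from the brightest, was not well above background in any pool and gives no value.

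**Figure D2:**
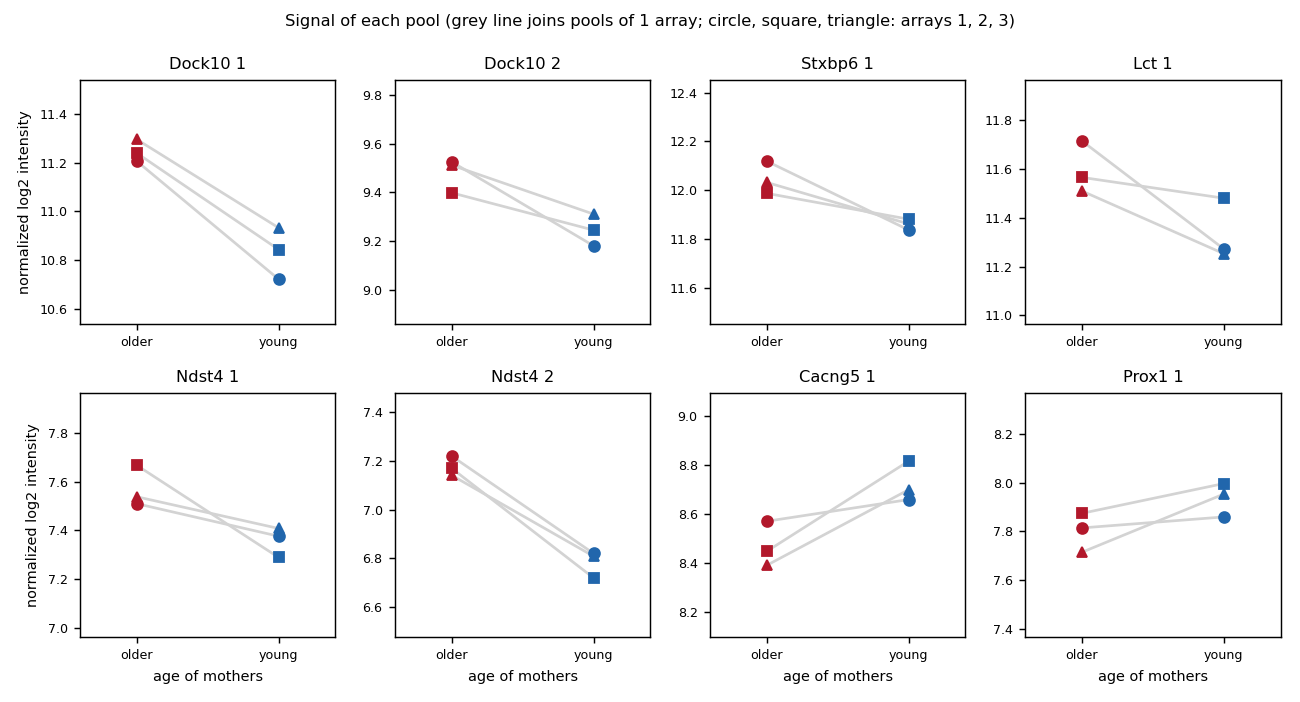
Normalized log2 intensity of each pool, older mothers left and young mothers right, for 8 probes of 6 marker genes, with a grey line joining the 2 pools of 1 array. The older-mother pools all lie above the young-mother pools for both probes of Dock10 and of Ndst4 and for Stxbp6 and Lct, and all below them for Cacng5, whereas the groups overlap for Prox1.

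The other 10 measured dentate markers did not pass the adjusted test. Lct, the gene of the lactase enzyme, gave normalized log2 intensities of 11.71, 11.57 and 11.51 in the older-mother pools and 11.27, 11.48 and 11.25 in the young-mother pools, a mean difference of 0.26 ± 0.18 on the log2 scale (SD, n = 3, limma adjusted p of 0.0656). Stxbp6, which encodes the SNARE-binding protein amisyn, gave normalized log2 intensities of 12.12, 11.99 and 12.03 in the older-mother pools and 11.84, 11.88 and 11.86 in the young-mother pools, a mean difference of 0.19 ± 0.09 on the log2 scale (SD, n = 3, limma adjusted p of 0.0621). The pools of the groups did not overlap for either gene, yet neither difference passed the threshold. Nor did that of Trpc6, a cation channel, at 0.14 (limma adjusted p of 0.0846), of Maml2, a coactivator of Notch signalling, at 0.21 (0.0874), or of Npnt, the matrix protein nephronectin, at 0.18 (0.101; 0.45 with Agilent's processed signals). Rfx3, a transcription factor of ciliary genes, had the smallest spread of all markers, with log2 ratios of 0.06, 0.05 and 0.05, but a mean of 0.23 with Agilent's processed signals.

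The 2 dentate markers with a mean below 0 were Prox1 and C1ql2. Prox1, the homeobox factor that keeps granule cell identity, had normalized log2 intensities of 7.81, 7.87 and 7.71 in the older-mother pools and 7.86, 8.0 and 7.95 in the young-mother pools. Its log2 ratios were -0.04, -0.12 and -0.24, a mean of -0.14 ± 0.10 (SD, n = 3, limma adjusted p of 0.131), and under median centring it stood 0.08 above all genes. C1ql2, a secreted C1q-like protein of mossy fibre synapses, averaged -0.07 ± 0.04 (SD, n = 3, limma adjusted p of 0.289). Both were below 0 on every array with loess. Dsp, the desmosomal protein desmoplakin, had ratios of 0.32, -0.16 and -0.09 and a mean of 0.03.

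Plk5, of the polo-like kinase family, had the largest p of the dentate markers. It gave normalized log2 intensities of 10.85, 10.58 and 10.60 in the older-mother pools and 10.38, 10.73 and 10.91 in the young-mother pools. Its log2 ratios of 0.47, -0.16 and -0.31 changed sign between arrays, with a mean of 0.0022, a limma adjusted p of 0.993 and a 95% interval of -0.37 to 0.38. Taken over the field, 9 of 11 dentate markers had a mean above 0, against 42.8% of all genes. On all 3 arrays 7 of the 11 were above 0, where 24.3% of all genes were, while 2 were below 0 on all 3. Under median centring 2 of the 11 were above 0 and 7 above the median of all genes. In 9 of the 11 the highest ratio was that of array 1, a larger share than the 6887 of all 17964 genes.

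In CA1, 0 of 8 markers passed the test, and 4 had an unadjusted p under 0.05, against 7091 of all 17964 genes. Ndst4, an enzyme that modifies heparan sulfate, had the smallest p. Its brightest probe gave normalized log2 intensities of 7.51, 7.67 and 7.54 in the older-mother pools and 7.38, 7.29 and 7.41 in the young-mother pools, with log2 ratios of 0.13, 0.38 and 0.13 and a mean of 0.21 ± 0.14 (SD, n = 3, limma adjusted p of 0.0737). Its other probe passed the threshold: it read 7.22, 7.17 and 7.14 on that scale in the older-mother pools and 6.82, 6.72 and 6.81 in the young-mother pools, a log2 ratio of 0.39 ± 0.06 (SD, n = 3), 1.31-fold, with a limma adjusted p of 0.0159. Both probes had no overlap between the groups and the same direction, so whether Ndst4 counts as changed depends on the probe; without array 3 the adjusted p of the second probe was 0.0515.

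Wfs1 and Fibcd1, 2 common labels of CA1 pyramidal cells, lay on opposite sides of 0. Wfs1, the endoplasmic reticulum protein wolframin, had log2 ratios of 0.07, 0.25 and 0.47 (mean 0.26, limma adjusted p of 0.0776). Fibcd1, a receptor with a fibrinogen-like domain, had -0.11, -0.12 and -0.49 (mean -0.24, limma adjusted p of 0.109), and its pools did not overlap. Gpr161, a ciliary receptor that restrains hedgehog signalling, averaged -0.21 (limma adjusted p of 0.110; -0.44 with Agilent's processed signals), and Man1a, a Golgi mannosidase, 0.16 at its brighter probe and -0.09 at the other. Mpped1, a metallophosphoesterase-domain protein, averaged -0.12, and Pou3f1, a POU-domain transcription factor, -0.02. Spink8, a Kazal-type protease inhibitor, had the largest p of the field, with ratios of -0.16, 0.08 and 0.02 (limma adjusted p of 0.827). The CA1 markers thus showed no common side: 3 had a mean above 0 and 5 below, beside 42.8% of all genes above 0. Of the 8, 5 changed sign between arrays, against 7078 of all 17964 genes.

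In CA3, 0 of 6 measured markers passed the test and 0 had an unadjusted p under 0.05, against 7091 of all 17964 genes. The smallest p was that of Spock1, which encodes the proteoglycan testican-1. Its brightest probe had normalized log2 intensities of 8.93, 9.12 and 9.06 in the older-mother pools and 9.31, 9.21 and 9.04 in the young-mother pools, with log2 ratios of -0.39, -0.09 and 0.02 (mean -0.15 ± 0.21, SD, n = 3, limma adjusted p of 0.247). The groups overlapped there. A second, dimmer Spock1 probe was well above background in the 3 young-mother pools and in 0 older-mother pools. It measured 1.15-fold lower in the older-mother pools, with means of 6.43 in the older-mother and 6.64 in the young-mother pools (normalized log2 intensity, limma adjusted p of 0.0511). The lowest signal well above background on each array was not above the probe's own older-mother signal. No separate bound on the size follows from it, and dye bias can enter the ratio because no dyes were swapped. The log2 ratio of this probe ran between -0.75 and -0.07 over the other settings apart from median centring, where it was 0.29, so neither the size nor the direction held in all of them.

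The largest p in CA3 was that of Prss35, a protein related to serine proteases, with log2 ratios of 0.08, -0.07 and -0.17 (limma adjusted p of 0.545). Grik4, a kainate receptor subunit, averaged -0.05 ± 0.04 (SD, n = 3). At the brightest probes Grik4 was the only CA3 marker below 0 on all arrays and the only one whose pools did not overlap. Coch, the matrix protein cochlin, had the widest interval of all 29 markers after that of Plk5, with ratios of -0.35, -0.49 and 0.18. Bok, of the Bcl-2 family, averaged 0.04, the only CA3 mean above 0 at the brightest probes.

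Cpne4, a copine that binds phospholipids in a calcium-dependent way, shows how far probes of 1 gene can part. Its brightest probe had log2 ratios of -0.20, 0.11 and -0.30 (mean -0.13, limma adjusted p of 0.308). The probe that lies nearest to it on the chromosome had 0.04, 0.39 and 0.63 (mean 0.35, limma adjusted p of 0.0787), and the remaining measured probe had -0.06, 0.23 and -0.42 (mean -0.08, limma adjusted p of 0.635); the last Cpne4 probe gave no level. None passed the threshold, and the mean over probes was 0.046, on the other side of 0 from the brightest. The mean of 0.35 was -0.20 under median centring, 0.20 above all genes there. Of the 9 marker genes with more than 1 measured probe, 4 had probes on both sides of 0. Rfx3, whose brightest probe averaged 0.05, had a second probe at 0.30 with ratios of 0.02, 0.48 and 0.41 (limma adjusted p of 0.0791). The second probes of Maml2, Mpped1 and Npnt averaged 0.18, 0.03 and -0.03, and those of Mpped1 and Npnt changed sign in 5 and 3 of 10 other settings. Over all 40 measured probes of the markers 3 passed the threshold, all higher in the older-mother pools, beside 18.6% of all 27630 probes in either direction.

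**Figure D3:**
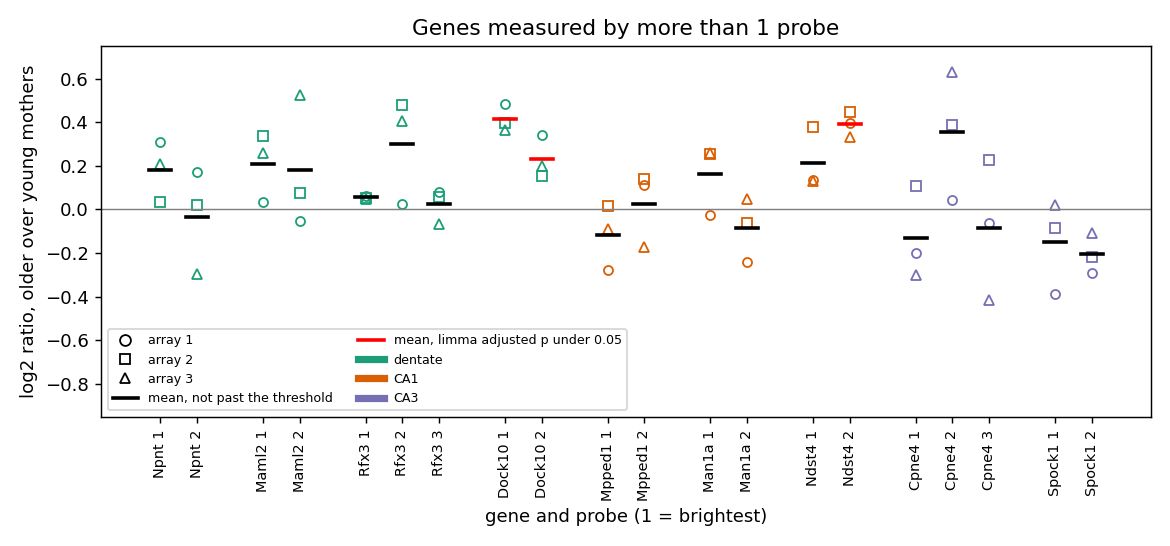
Older-over-young log2 ratio on arrays 1, 2 and 3 (circle, square, triangle) for every measured probe of the 9 genes with more than 1, brightest first, with the mean as a bar that is red where the limma adjusted p was under 0.05. Both Dock10 probes and the second Ndst4 probe carry red bars above 0, and the Cpne4 means lie at -0.13, 0.35 and -0.08; under median centring the 2 Dock10 means lie below 0.

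All 4 CA2 markers had a mean below 0, against 10277 of all 17964 genes. On every array 3 of the 4 were below 0, where 36.3% of all genes were. Under median centring all 4 were below 0 and 3 below the median of all genes. None passed the adjusted test. Cacng5, an auxiliary subunit of AMPA receptors, came nearest: it gave normalized log2 intensities of 8.57, 8.45 and 8.39 in the older-mother pools and 8.66, 8.82 and 8.70 in the young-mother pools. Its log2 ratios were -0.09, -0.37 and -0.31, with a mean of -0.26 ± 0.15 (SD, n = 3) and a limma adjusted p of 0.0528. The pools did not overlap. It passed the threshold without array 1 (-0.34, limma adjusted p of 0.0362), with Agilent's processed signals (-0.46, limma adjusted p of 0.0489) and without background correction (-0.35, limma adjusted p of 0.0164).

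Pcp4, a small calmodulin-binding peptide that is strong in CA2 and also found in dentate granule cells, had normalized log2 intensities of 13.84, 13.74 and 13.72 in the older-mother pools and 13.87, 13.90 and 13.92 in the young-mother pools. Its pools did not overlap, and the log2 ratio averaged -0.13 ± 0.09 (SD, n = 3, limma adjusted p of 0.136). Map3k15, a kinase of the MAP kinase cascades, had -0.31, -0.11 and -0.03 (limma adjusted p of 0.161). Amigo2, a leucine-rich adhesion protein, had the largest p of the field, with normalized log2 intensities of 8.22, 8.64 and 8.50 in the older-mother pools and 8.53, 8.57 and 8.46 in the young-mother pools. Its log2 ratios of -0.31, 0.07 and 0.04 averaged -0.06 (limma adjusted p of 0.607), and only array 1 was below 0.

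The fields were then set side by side by the median of their markers on each array, taken from the deposited log2 ratios, which are of older over young mothers. These medians are descriptions with no test, since the markers of a field are not replicates. The dentate median was 0.27, 0.03 and 0.15 on arrays 1, 2 and 3 (0.15 ± 0.12, SD, n = 3). The CA1 median was -0.11, 0.06 and 0.06 (0.01 ± 0.10, SD, n = 3), and the CA3 median -0.14, -0.08 and 0.01 (-0.07 ± 0.08, SD, n = 3). The CA2 median was -0.20, -0.13 and -0.11 (-0.15 ± 0.05, SD, n = 3), and that of all genes -0.03 on each array. The dentate median was above that of all genes on every array and the CA2 median below it, while CA1 and CA3 crossed it.

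Within arrays the distance between fields varied more than its mean for the dentate gyrus and CA1. The dentate minus CA1 difference was 0.38, -0.04 and 0.09 (mean 0.14, SD 0.22, n = 3), so its sign turned on array 2. Dentate minus CA3 was 0.42, 0.11 and 0.14 (mean 0.22, SD 0.17, n = 3) and dentate minus CA2 0.48, 0.16 and 0.26 (mean 0.30, SD 0.16, n = 3). Array 1 held the largest of each of these 3 differences. CA1 minus CA2 was steadier, at 0.09, 0.20 and 0.17 (mean 0.15, SD 0.05, n = 3). The remaining differences were 0.08 each on average, CA1 over CA3 and CA3 over CA2. An exact two-sided sign-flip test over 3 arrays cannot go below p = 0.25, so no p is given for these differences.

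**Figure D4:**
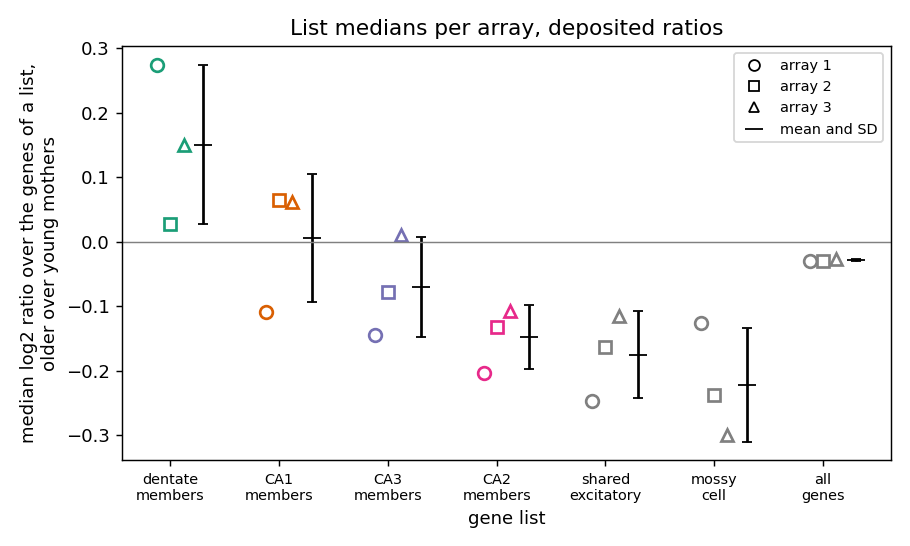
Median of the deposited log2 ratios (older over young mothers) over the measured markers of each field on arrays 1, 2 and 3 (circle, square, triangle), with the mean and SD of the 3 arrays beside them, and the same for markers of excitatory neurons in general (shared excitatory), for mossy cells and for all genes. Dentate symbols lie at 0.27, 0.03 and 0.15 and CA2 symbols between -0.20 and -0.11, while all genes lie at -0.03.

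With median centring of the arrays instead of loess, all genes had a median of -0.44 in these signals. The dentate, CA1, CA3 and CA2 medians then stood at -0.36, -0.53, -0.61 and -0.55, which relative to all genes is 0.08, -0.09, -0.18 and -0.11. The dentate markers stayed the highest field and the only one above all genes, and CA3 in place of CA2 was the lowest. The shift under median centring differed with probe brightness. Pcp4 (average log2 intensity 13.83) went from -0.13 to -0.86, and Prss35 (6.70) from -0.05 to 0.32. A distance from all genes on that scale therefore also depends on how bright the probes are. With Agilent's own processed signals the CA2 median was -0.26 and the dentate markers were again the highest. The plot of medians by processing shows these with the other settings.

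**Figure D5:**
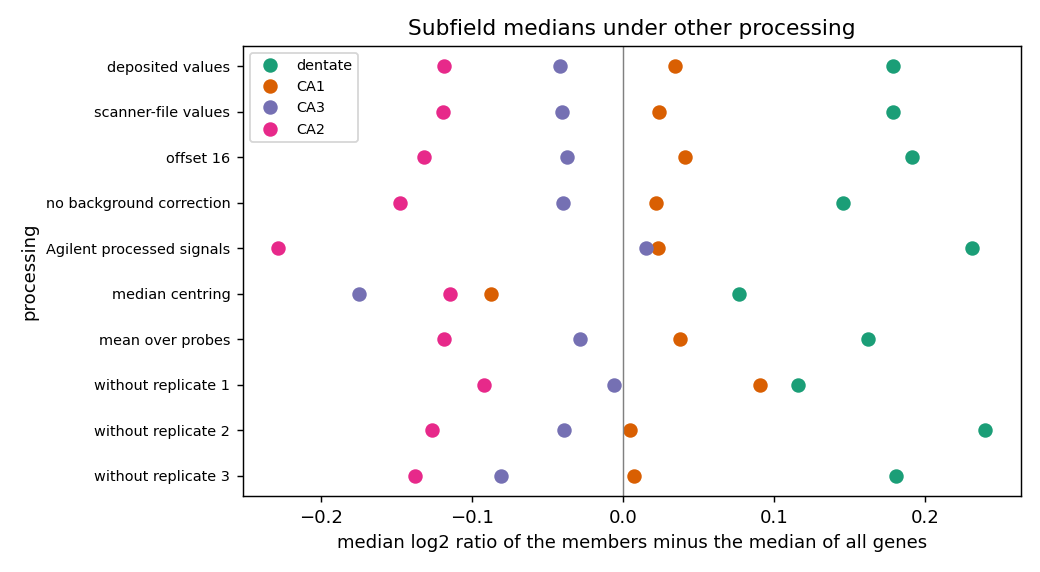
Mean over arrays of the field median minus the median of all genes (log2 ratio, older over young mothers), 1 row per processing setting and 1 colour per field. The dentate point is the rightmost in every row, at 0.08 under median centring, and CA2 is the leftmost in every row but that one, where CA3 stands at -0.18.

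The brightest probes of the 29 markers lay on 14 chromosomes, and their GC content ran between 31.7% and 55%. The median GC content was 40% for dentate, 39.2% for CA1, 35% for CA3 and 35% for CA2 probes; its part in the ratios was not tested. No batch could be set apart, since the 3 arrays were on 1 slide in 1 scan.

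Further markers of the same fields, which are not among the 32 genes, held 2 calls in all. Of 4 measured dentate genes 1 rose: Calb1, the calcium-buffer calbindin of mature granule cells, at 0.24 ± 0.08 (SD, n = 3, limma adjusted p of 0.0335), with a list median of 0.18; Calb1 was at -0.29 under median centring, 0.11 above all genes there. Of 4 CA3 genes 1 fell: Dkk3, a secreted protein of the Dickkopf family, at -0.25 ± 0.09 (SD, n = 3, limma adjusted p of 0.0334), with a list median of -0.12. None of 4 further CA1 genes (median 0.10, smallest p Htr1a, a serotonin receptor, at 0.13) or 6 further CA2 genes (median -0.14, smallest p Nr3c2, the mineralocorticoid receptor, at 0.15) passed the adjusted limma test. At an unadjusted p under 0.05 there were 0 and 2 of them, against 7091 of all 17964 genes. These list medians are over the mean ratios of the genes. Taken as the field medians are, from the deposited ratios on each array, they averaged 0.15 for the further dentate, 0.09 for CA1, -0.13 for CA3 and -0.07 for CA2 genes, the last beside -0.15 for the 4 CA2 markers.

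Markers of excitatory neurons in general were measured beside these; 1 of them, Neurod6, is known from pyramidal rather than granule cells. Of 6, 3 fell and 1 rose, with a median of -0.19. Camk4, a calcium-dependent kinase, fell by 0.29, Nrgn, the calmodulin-binding neurogranin, by 0.25 and Neurod6, a transcription factor, by 0.34 on the log2 scale (limma adjusted p of 0.0195, 0.0236 and 0.0239). Neurod2, a related factor, rose by 0.19 (limma adjusted p of 0.0438), but was at -0.49 under median centring, 0.09 below all genes there. Of 5 markers of mossy cells, the other excitatory neurons of the dentate gyrus, 2 fell: Glp1r, a peptide hormone receptor, at -0.26 and Nmb, neuromedin B, at -0.26 (limma adjusted p of 0.0294 and 0.0434), with a median of -0.20; Glp1r was at -0.10 under median centring, which is 0.30 above all genes.

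Of 7 markers of young granule cells and their progenitors 2 rose and 1 fell, with a median of -0.04. Sox11, a transcription factor of young neurons, was at 0.26 and Neurod1, which drives granule cell differentiation, at 0.25 (limma adjusted p of 0.0260 and 0.0263). Under median centring these were -0.13 and -0.06, both above all genes there. Igfbpl1, a secreted protein of young neurons, was at -0.35 (limma adjusted p of 0.0335), and at -0.21, above all genes, under median centring. Calb2 stands in this list and in that of mossy cells. The part of these lists in the field medians was not tested.

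Markers of tissue that borders the hippocampus were measured as well. Of 4 subiculum genes 0 passed the adjusted limma test, with 2 at an unadjusted p under 0.05 (median -0.09, smallest p Fn1, fibronectin, at -0.17). Of 4 cortical genes 1 rose (Tle4, a corepressor of deep-layer neurons, 0.19, limma adjusted p of 0.0411; median -0.03). Of 5 thalamic genes 1 rose (Plekhg1, 0.32, limma adjusted p of 0.0409; median -0.09). Of 5 striatal genes 1 rose and 1 fell, with a median of -0.25; the gene that rose was Rgs9, a regulator of G protein signalling, at 0.32 (limma adjusted p of 0.0274). Under median centring Rgs9 was at -0.14, above all genes there. These lists stood between -0.25 and -0.03 in their medians, and their part in the values of the fields was not tested.

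Among the lists measured here, the pools differed most in markers of the choroid plexus, the secretory tissue of the ventricles. All 10 genes had a mean below 0 and 3 fell: Kcnj13, a potassium channel, at -1.41, Sostdc1, a secreted BMP antagonist, at -1.24 and Slc4a5, a bicarbonate transporter, at -0.65 (limma adjusted p of 0.0478, 0.0389 and 0.0369). Ttr had the lowest mean, -2.08 ± 1.70 (SD, n = 3), but did not pass the threshold (limma adjusted p of 0.0645). The list median was -0.90, -2.19 and -0.41 on arrays 1, 2 and 3. Summed over the 10 genes, normalized intensity was 43500, 18013 and 104785 units in the older-mother pools and 116759, 160375 and 152516 in the young-mother pools. The lowest older-mother sum and the lowest dentate median both fell on array 2, though the choroid plexus median was highest on array 3 and the dentate median on array 1. The 6 oligodendrocyte markers had medians of 0.23, -0.18 and 0.05 in the deposited ratios on arrays 1, 2 and 3, the same order of arrays as the dentate medians, and 5 of the 6 were highest on array 1. The part of these cells and of the choroid plexus in the field values was not tested.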

How the data were processed

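Total RNA of 6 hippocampal pools was measured on 3 two-colour Agilent arrays with 60-base probes. Spot and background signals are raw intensity values made with Agilent Feature Extraction 10.10.1.1, per the file headers, which also give processed intensity values and flags of another (other) kind, 0 or 1. The deposited values are log2 ratios, with steps that the authors do not state beside them; normexp with offset 50 and loess on the median signals gave the same log2 values of Cy3 over Cy5 (largest difference 5e-10). Its columns have medians of -0.0054, -0.0051 and -0.0056.

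Each array held 44397 spots, none saturated. Of spots that are not controls, 64.6% to 66.7% were well above background in Cy3 and 71.0% to 74.9% in Cy5. Precision is limited by there being 3 arrays.

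Mean signals were corrected with normexp (offset 50) and loess (span 0.3, weight 0 for control and outlier spots) in limma 3.58.1 under R 4.3.3, with version 1.17.8 of data.table and 2.0.0 of jsonlite. A probe was kept if well above background in Cy3 or in Cy5 on all 3 arrays (27630 of 39429). The test was an intercept in limma (2 residual and 3.42 prior degrees of freedom). Each array pairs 1 pool of each group by hybridisation, so the ratio is the paired value. Pool signals are single-channel values after loess and Aquantile scaling between arrays. A gene is given by its brightest kept probe, and field medians use the deposited table. An offset brings ratios of dim probes nearer to 0.

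The members and the 16 other lists (90 genes) were chosen with earlier results of these data known. All members are accounted for, with array values for each called member and for the smallest and largest p of a field, and some others. Of other lists, the called members and the smallest p are named, except where an item is not reported here. Alternatives were other signals, background corrections, dye normalizations, filters and variance settings, the mean over probes, separate channels and leaving out each array.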

Additional observations from a re-analysis of the deposited data

How the results depend on the processing

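The limit of these results is 3 arrays with the same dye orientation, and dim probes, whose signals in Cy3 lay near background. The count of markers called was also 1 with the deposited table (17.3% of all genes), an offset of 16 (14%) and no filter (15.1%). It was 1 as well with the stricter filter (20.4%) and a variance trend (17.8%). It was 3 with Agilent's processed signals (Dock10, Cacng5, Map3k15; 9.22% of all genes), 4 without background correction (Stxbp6, Dock10, Cacng5, Map3k15; 26.8%), 25 with median centring, when 85.2% of all genes were called, and 2 with the mean over probes (Dock10, Ndst4; 18.7%). The arrays pair the pools: without the replicate block, with channels separate, 4 were called (Stxbp6, Dock10, Ndst4, Cacng5). The share of all genes called in that setting is not given, so these 4 cannot be set against a background. Leaving out each array gave between 0 (without array 3) and 5 (without array 1) calls, and all genes called were 0.145% to 12.9%. Median centring put the dentate, CA1, CA3 and CA2 medians at -0.36, -0.53, -0.61 and -0.55, and Agilent's processed signals the CA2 median at -0.26; other moves stayed within 1 SD, but several were large for the value. Without 1 array, the dentate median ran between 0.088 and 0.21, CA1 between -0.024 and 0.063, CA3 between -0.11 and -0.034 and CA2 between -0.17 and -0.12. CA1 was also below 0 with processed signals, the scanner-file values and no background correction. Processed signals moved Npnt to 0.45, Rfx3 to 0.23, Gpr161 to -0.44, Cacng5 to -0.46, Map3k15 to -0.27, Coch to -0.33 and Man1a to 0.02. Median centring moved bright probes down and the dimmest up. It also turned Dsp (-0.46), Lct (-0.35), Stxbp6 (-0.45), Trpc6 (-0.35), Plk5 (-0.57), Rfx3 (-0.068), Dock10 (-0.18), Wfs1 (-0.40), Gpr161 (0.074), Bok (-0.57) and Prss35 (0.32). Pou3f1 turned to 0.0081 with processed signals, Plk5 to -0.0069 and Prss35 to 0.029 without background correction, and Cpne4 to 0.046 over its probes. With 1 array left out, ranges crossed 0 for Dsp (-0.12 to 0.12), Plk5 (-0.23 to 0.16), Pou3f1 (-0.073 to 0.010), Spink8 (-0.070 to 0.050), Prss35 (-0.12 to 0.0035) and Amigo2 (-0.13 to 0.057). Beyond these arithmetic shifts the cause was not tested.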

Other observations

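Markers of glia and interneurons, which mix with the principal neurons in RNA of the whole hippocampus, held calls in both directions. Among 6 astrocyte markers Gfap, the intermediate filament of astrocytes, rose by 0.48 ± 0.12 on the log2 scale (SD, n = 3, limma adjusted p of 0.0163), and the list median was 0.03. Among 6 microglial markers Cx3cr1, the fractalkine receptor, fell by 0.46 and C1qa, a chain of complement C1q, rose by 0.31 on the log2 scale (limma adjusted p of 0.0148 and 0.0190), with a median of 0.04. Under median centring Gfap was at -0.15 and C1qa at -0.25, both above the median of all genes there.

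Of 8 interneuron markers 2 fell and 0 rose, with a median of -0.03. Slc32a1, the vesicular transporter of GABA and glycine, had log2 ratios of -0.39, -0.31 and -0.38 on arrays 1, 2 and 3, and Cck, a neuropeptide of basket cells, of -0.26, -0.20 and -0.29 (limma adjusted p of 0.0163 and 0.0261). Of 6 oligodendrocyte markers 0 passed the adjusted limma test and 0 had an unadjusted p under 0.05. The median of their mean ratios was -0.01, while their array medians in the deposited ratios ran between -0.18 and 0.23. The 16 lists outside the set, of 90 genes, held 23 genes past the adjusted limma threshold with all arrays, where 19.5% of all genes passed it. Without array 3, 0 of these 23 passed it, where 26 of all 17964 genes (0.145%) did.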
